A study of Mus musculus with 58 samples.

Results

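The genes described here encode the Myc and Max network of transcription factors: Myc, Mycn and Mycl, their partner Max, the further Max partners Mga and Mnt, and Mlx. They were chosen by name, and these 7 are among the 20177 genes counted. RNA 3′ ends were sequenced from E14 mES cells (mouse embryonic stem cells of 129/Ola background) in which a core subunit of the COMPASS enzymes, the methyltransferases that write H3K4me3 at promoters, could be degraded at will. In SLAM-seq, cells received 100 µM 4sU for 60 min before harvest, and a read with a T>C conversion was taken to come from RNA made in that time. DPY30-mAID cells carry an auxin-inducible degron on DPY30 and had 3 libraries each at 0, 2, 8 and 24 h of depletion. RBBP5-FKBP cells, with RBBP5 degraded by the dTAG system, had 3 libraries at each of the same times. The dKO cells are DPY30-mAID cells without Kdm5a and Kdm5b, which encode H3K4 demethylases, and had 2 libraries each at 0, 2, 4, 8, 24 and 48 h. All dKO libraries lack both genes, those at 0 h included. According to the methods the RBBP5-FKBP and knockout cells were sorted as single cells, and DPY30-mAID cells came from homozygous clones. For dKO cells 2 clones were picked, but the labels do not tie a library to a clone. In Quant-seq, which counts 3′ ends without 4sU, DPY30-mAID cells were differentiated with 1 µM retinoic acid (RA) and without LIF, together with DMSO or auxin, for 8 h and 1, 2, 4 or 6 days. There were 2 libraries per group, plus 2 of DMSO at 0 h, and the auxin arm has no 0 h group of its own.

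Myc proteins bind DNA as dimers with Max, at the E-box CACGTG, and activate genes of growth, ribosome production and metabolism. Mnt and the Mxd proteins compete for Max and repress such genes, Mga brings Max into the Polycomb complex PRC1.6, which keeps germline genes silent in mES cells, and Mlx is a Max-like protein that pairs with Mnt and with the glucose-sensing Mondo factors. In mES cells Myc and Mycn sustain proliferation and self-renewal, and Myc mRNA is known for its rapid turnover.

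Since the network binds the E-box, the promoters of its own genes were read for it. The RefSeq promoter table (GRCm38.p6) holds 32851 windows of 300 bases, from 250 bases before to 50 bases after a start site, and 6 of the 7 genes were matched to it. Myc was not matched. The palindrome CACGTG, which reads the same on both strands, occurs in 2349 windows (7.15%) and in those of 3 of the 6 matched genes, Mnt, Mlx and Max. The 30 bases around each match are shown in the direction of the gene, with the E-box in capitals.
Mnt: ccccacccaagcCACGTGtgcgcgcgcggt
Mlx: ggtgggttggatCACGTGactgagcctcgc
Max: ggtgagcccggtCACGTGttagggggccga
The Mnt stretch is at chr11:74830789-74830818 on the + strand, with the E-box 118 bases before the start site. The Mlx stretch is at chr11:101087238-101087267 on the + strand, 35 bases before the start, and the Max stretch is at chr12:76962234-76962263 on the − strand, with the E-box over the start itself. No such match was in the windows of Mycn, Mycl or Mga. A match says only that these letters are in the window.

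Reads were counted in 3′ UTR intervals of the GRCm38 build. That of Myc (ENSMUSG00000022346) is chr15:61989909-61990374 on the + strand, that of Mycn chr12:12936093-12937005 on the − strand and that of Mycl chr4:123000516-123002485 on the + strand. Max was counted at chr12:76937269-76938567 on the − strand, with 99.9% of its reads there, Mga at chr2:119964966-119969581, Mnt at chr11:74843321-74845725 and Mlx at chr11:101091166-101092399, all on the + strand. Over the 58 libraries, 13.2% of Max reads could map to more than one place, as could 9.23% for Mycn and 5.25% for Mnt. Each of the other genes was under 0.3%. Such Max reads at 0 h were 140 of 827 and 157 of 977 in dKO cells. In DPY30-mAID cells at 0 h they were 8 of 272, 9 of 353 and 15 of 364. A degron acts on the protein, so the mRNA of Dpy30 or Rbbp5 is no check of the depletion.

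Libraries held 2013350 to 2806821 reads in DPY30-mAID cells, 1721185 to 2852331 in RBBP5-FKBP cells, 5931269 to 7792404 in dKO cells and 1264241 to 2543632 in Quant-seq. The share of reads with a T>C conversion was 0.303% to 0.388% in the unlabelled Quant-seq libraries, 15.3% to 16.1% at 0 h in DPY30-mAID cells, 9.10% to 10.1% in RBBP5-FKBP cells and 4.69% to 5.27% in dKO cells. At 8 h in DPY30-mAID cells the libraries stood apart, with 13.0%, 9.82% and 5.51% in replicates 1, 2 and 3, so the calls and lists at this time are also given without replicate 3. The 9 pluripotency markers, Pou5f1, Sox2 and Nanog among them, summed to 7016 or more CPM (counts scaled to the reads of the library) in each 0 h library, and 4 fibroblast markers to at most 2.57. The pair of day 6 libraries with DMSO held identical counts and is treated as 1. The study describes its SLAM-seq replicates as biological, and nothing states whether the Quant-seq libraries are separate cultures, so p-values there measure only the spread between libraries, which may be technical. In bulk RNA fewer cells with a transcript and less of it per cell cannot be told apart.

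Before any depletion, Myc and Mycn had larger shares of newly made RNA than most genes. In DPY30-mAID cells at 0 h, 58.5% of the 135 Myc reads carried a T>C conversion (95% exact interval 49.7 to 66.9%, for counting error only), above 99.8% of 9067 genes, whose median was 18.9%. Mycn stood at 39.5% (36.5 to 42.5%), above 94.5% of genes. Max was at 34.2%, Mga at 29.3% and Mnt at 28.7%, above 88.4%, 79.0% and 77.7% of genes, while the 19.3% of Mlx was close to the median. The interval of Mycl, 19.1 to 52.2%, rested on 35 reads and spans those of Mycn, Max, Mga and Mnt.

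In RBBP5-FKBP cells Myc (36.1%) and Mycn (35.1%) again lay above 98.7% and 98.5% of genes, and Max, at 30.9%, above 96.9%. In dKO cells the shares of Myc, 39.0% (34.2 to 44.0%), and Mycn, 28.0%, lay above 99.9% and 99.0% of genes, while Max (13.1%), Mnt (11.8%), Mlx (13.4%) and Mga (8.18%) lay above 69.3% to 87.1%. The share also grows with the number of T in the reads of a gene. Counted as conversions per T covered, Myc lay above 96.9%, 97.0% and 99.5% of genes in the 3 lines and Mycn above 78.2%, 96.1% and 97.8%. In unlabelled Quant-seq libraries, T>C reads were 0 of 1646 reads for Mlx and 0 of 989 for Mycn, and at most 0.308% of reads, for Mga.

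**Figure D1:**
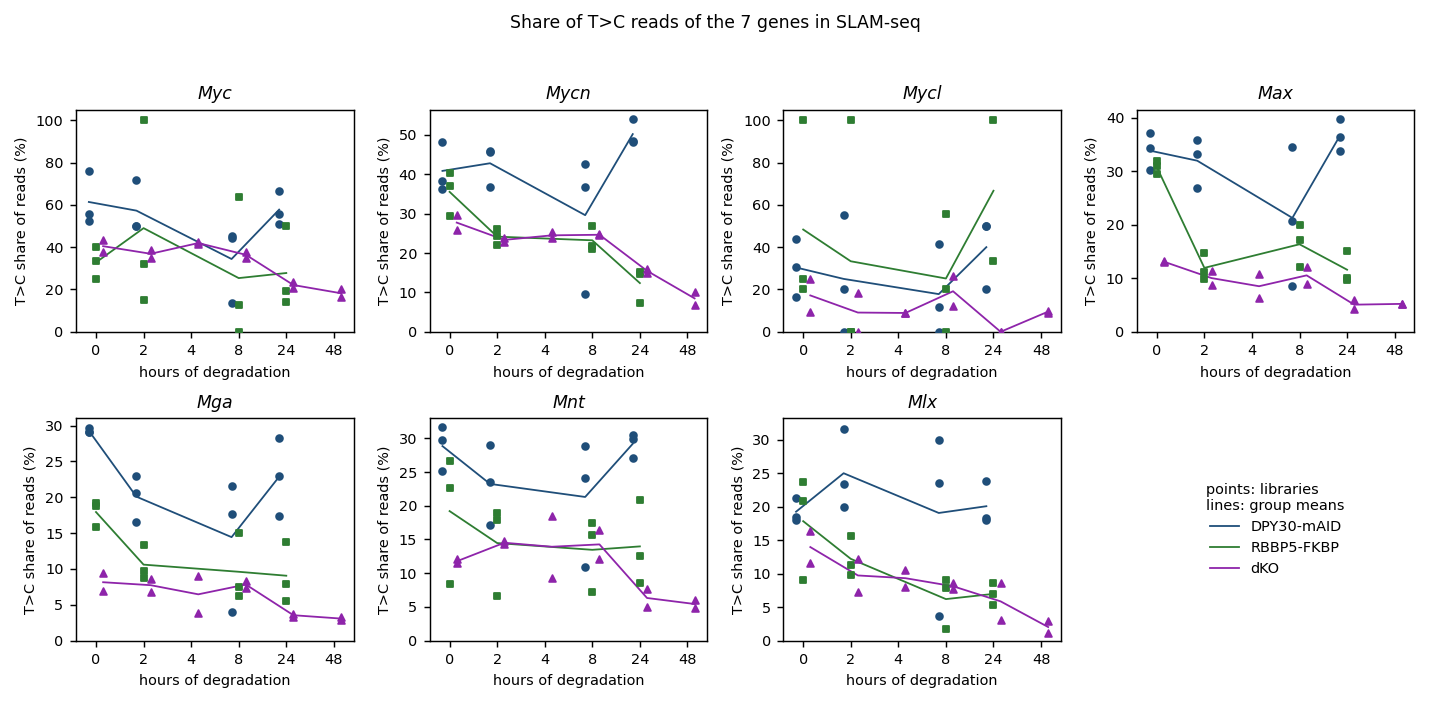
T>C reads as a percentage of all reads of each gene (vertical axis) at each time of depletion (horizontal axis, times evenly spaced and not to scale) in DPY30-mAID, RBBP5-FKBP and dKO cells. Each point is a library and lines join group means. Myc and Mycn start high, and in RBBP5-FKBP cells the Mycn share is 29.5 to 40.3% at 0 h and 7.35 to 15.1% at 24 h.

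The first question of the SLAM-seq time courses was which of these genes made less RNA once H3K4 methylation was being lost. T>C counts scaled to the total reads of the library as CPM (T>C CPM) were compared with 0 h by edgeR's quasi-likelihood test, scaled to total reads, with Benjamini-Hochberg adjustment over all genes tested and calls at an adjusted p under 0.05. The times of a line share its 0 h libraries. Mycl had too few T>C reads to be tested in any line, with 12 in all at 0 h in DPY30-mAID cells, 8 in RBBP5-FKBP cells and 6 in dKO cells, and Myc had too few in RBBP5-FKBP cells.

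In DPY30-mAID cells Mga, the PRC1.6 subunit, was the gene of the network that fell at 8 h. Its T>C CPM was 40.0, 44.9 and 46.0 in replicates 1, 2 and 3 at 0 h, 25.1, 22.7 and 30.3 at 2 h, 22.6, 17.9 and 4.56 at 8 h, and 36.5, 19.9 and 23.0 at 24 h. All libraries after 0 h lay below those of 0 h. The log2 fold change at 8 h was −1.64 ± 0.40 (SE, adjusted p = 0.00421), −1.21 (adjusted p = 0.0066) without replicate 3 of 8 h and −0.998 (adjusted p = 0.0429) with TMM factors from T>C reads in place of total reads. At 2 h the difference was −0.79 ± 0.39 (adjusted p = 1) and at 24 h −0.73 (adjusted p = 0.29). Thus 1 of 6 genes tested fell at 8 h, where 16.1% of 6317 genes did. The median change of the 6 was −0.70, against −0.71 for all genes. Without replicate 3 of 8 h Mga was again the one gene called, where 11.8% of all genes fell, and the medians were −0.26 and −0.42.

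Mycn in the same cells was at 50.3, 56.6 and 54.0 T>C CPM at 0 h, 61.2, 54.6 and 47.7 at 2 h, 40.9, 40.7 and 6.38 at 8 h and 66.6, 52.9 and 67.0 at 24 h. Libraries of 8 h lay below the other times, replicate 3 far below. The change at 8 h was −0.97 ± 0.37 (adjusted p = 0.0638). It was called with a replicate block (−1.08, adjusted p = 0.0422) and without replicate 1 of 8 h (−1.30, adjusted p = 0.0103), and was −0.50 (adjusted p = 0.219) without replicate 3. From 8 h to 24 h Mycn rose by 1.17 ± 0.37 on the log2 scale (adjusted p = 0.0219), where 17.1% of genes rose. That rise was 0.70 (adjusted p = 0.0482) without replicate 3 of 8 h. It lost its call without replicate 1 or 3 of 24 h (adjusted p = 0.0645 and 0.0787), in a fit of these 2 groups (0.0938) and when scaled with TMM factors from T>C reads (0.68, adjusted p = 0.0559). No other gene of the network was called at these times, though without replicate 1 of 8 h Max was (−1.39, adjusted p = 0.00427).

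Myc was at 10.7, 8.55 and 11.95 T>C CPM at 0 h, 12.3, 11.2 and 0.993 at 2 h, 10.2, 7.26 and 1.82 at 8 h and 13.2, 11.6 and 12.1 at 24 h, and replicate 3 lay lowest at both middle times. Max was at 40.0, 43.1 and 48.9 at 0 h and 56.7, 27.1 and 9.11 at 8 h, where its libraries spanned the 0 h values, and 42.9, 39.3 and 41.6 at 24 h. Mlx ranged from 0.911 to 23.9 at 8 h around 8.30 to 11.04 at 0 h, with replicate 3 again lowest. Mnt had 10.7, 11.8 and 15.6 at 0 h and 11.9, 15.5 and 8.20 at 8 h, with overlapping groups. At 2 h and at 24 h against 0 h none of the 6 genes was called, at 0% and 3.61% of all genes. At an unadjusted p under 0.05 there were 1 and 0, and by DESeq2 none.

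**Figure D2:**
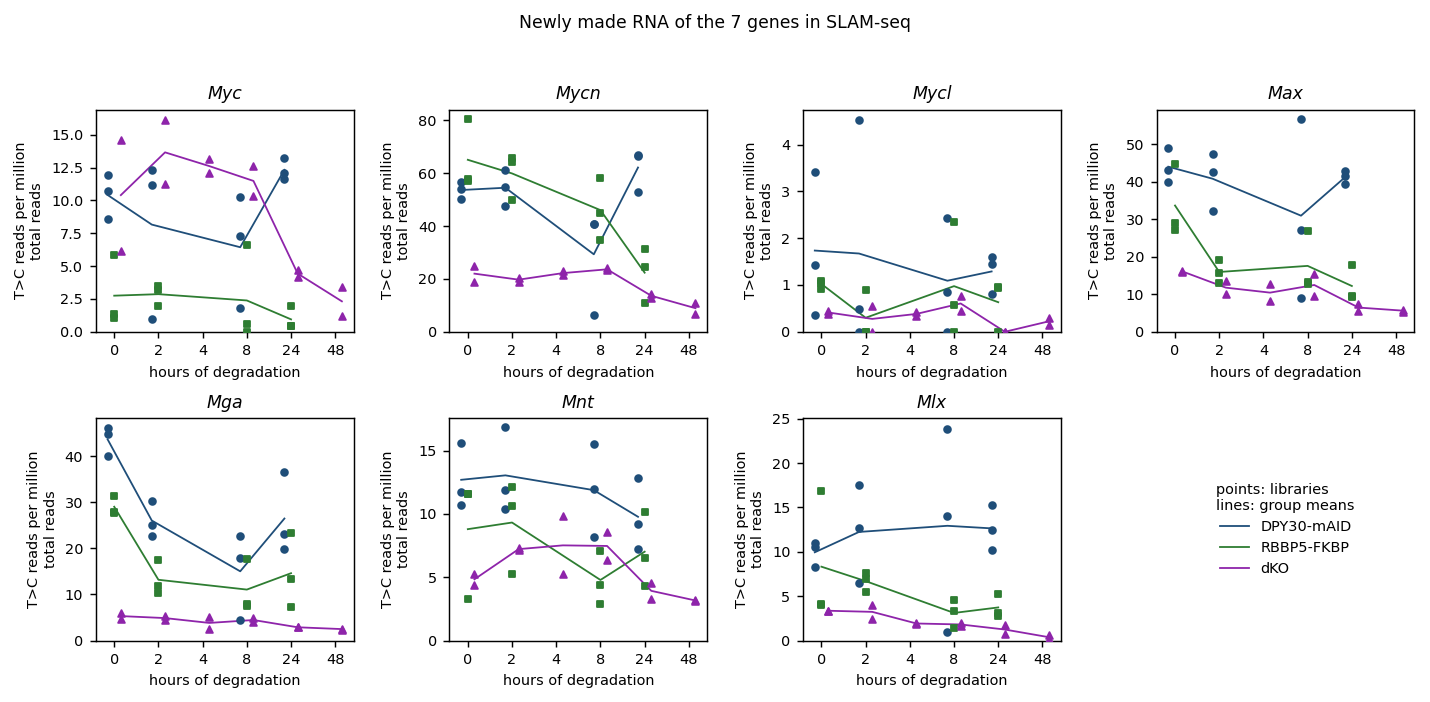
T>C reads scaled to total reads, in CPM (vertical axis), of each gene against the time of depletion (horizontal axis, evenly spaced, not to scale) in the 3 lines. Points are libraries and lines join group means. Mycn and Max reach their lowest values at 24 h in RBBP5-FKBP cells, while in DPY30-mAID cells the 24 h values of both are back in or near the 0 h range.

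In RBBP5-FKBP cells the Myc-family gene Mycn and its partner Max both fell at 24 h. Mycn had 80.4, 57.8 and 57.0 T>C CPM at 0 h, 65.7, 49.8 and 64.2 at 2 h, 58.2, 34.8 and 45.1 at 8 h, and 11.1, 24.7 and 31.3 at 24 h. The last group lay below all others, with a log2 fold change of −1.57 ± 0.29 (adjusted p = 2.35e-05). Over the same time its total CPM was 199.5, 157 and 194 at 0 h and 151, 168 and 208 at 24 h, with overlapping groups and a log2 fold change of −0.10 (adjusted p = 0.762). The share of Mycn reads with a conversion was 40.3, 36.9 and 29.5% at 0 h and 7.35, 14.7 and 15.1% at 24 h. The mean share at 24 h was 0.348 of that at 0 h, with total reads close to their 0 h range.

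Max had 27.2, 29.1 and 44.7 T>C CPM at 0 h, 19.2, 13.0 and 15.7 at 2 h, 12.7, 13.3 and 26.8 at 8 h and 9.30, 17.7 and 9.64 at 24 h. Each library after 0 h lay below each 0 h library. The changes were −1.11 (adjusted p = 0.194) at 2 h, −0.98 (adjusted p = 0.102) at 8 h and −1.49 ± 0.39 (adjusted p = 0.00252) at 24 h. DESeq2 called the changes at 2 h (−1.13, adjusted p = 0.0421) and 8 h (−0.99, adjusted p = 0.0448) too. Its total CPM, 88.2, 98.5 and 140.2 at 0 h and 97.0, 117 and 95.4 at 24 h, overlapped, and its share of T>C reads went from 29.5 to 31.9% at 0 h to 9.92 to 14.7% at 2 h and 9.59 to 15.1% at 24 h. The falls of Mycn and Max at 24 h kept their calls when any single library was left out. With TMM factors from T>C reads they were −0.68 (adjusted p = 0.241) and −0.61 (adjusted p = 0.496), so both calls rest on scaling to total reads. The median of all genes at 24 h was −0.91, that of the 5 tested here −1.19, and 2 of 5 fell, where 25.9% of 4761 genes did.

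Mga fell at 8 h in these cells too. Its T>C CPM was 31.4, 27.7 and 28.0 at 0 h, 17.4, 11.8 and 10.3 at 2 h, 7.49, 17.7 and 7.99 at 8 h and 13.3, 23.3 and 7.23 at 24 h, with no overlap with 0 h at any time. The change was −1.17 (adjusted p = 0.217) at 2 h, −1.43 ± 0.43 (adjusted p = 0.0273) at 8 h and −1.02 (adjusted p = 0.059) at 24 h, where it was called with a replicate block (−1.13, adjusted p = 0.0381) and without replicate 2 of 24 h (−1.53, adjusted p = 0.019). This made 1 of 5 genes at 8 h, where 7.71% of all genes fell. The call at 8 h was lost without any one library of 0 h (adjusted p = 0.0684, 0.0576 and 0.0592), without replicate 1 or 3 of 8 h (0.134 and 0.13) and with TMM factors from T>C reads (−0.93, adjusted p = 0.357). At 2 h none of 5 genes was called, where 0.252% of all genes were. At an unadjusted p under 0.05 there were 2, and DESeq2 called 1.

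The T>C CPM of Myc, Mnt and Mlx scattered more widely in this line. Myc was at 1.39, 1.05 and 5.81 at 0 h and 0.443, 0.466 and 1.93 at 24 h, each from 1 to 16 reads, with overlapping groups. Mlx was at 4.16, 16.8 and 3.99 at 0 h, 4.61, 3.32 and 1.41 at 8 h and 3.10, 2.80 and 5.30 at 24 h, so that a single 0 h library stood high. Its total CPM at 0 h already spanned 17.5 to 81.0. Mnt was at 11.5, 11.6 and 3.27 at 0 h and 10.2, 6.52 and 4.34 at 24 h. No change of Mlx or Mnt was called, with log2 fold changes at 24 h of −1.19 (adjusted p = 0.197) and −0.35 (adjusted p = 0.685).

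In dKO cells 5 of the 6 genes tested fell at 24 h and the same 5 at 48 h, Myc, Mycn, Max, Mga and Mlx, while Mnt did not pass. Nearly all of these falls hold only relative to total reads: with TMM factors from T>C reads Mlx at 48 h (−1.92, adjusted p = 0.0499) was the only one of the 10 calls kept, and the signs of Mycn at 24 h (0.05, adjusted p = 0.918) and of Mga at 48 h (0.12, adjusted p = 0.911) turned. Of all 5965 genes, 43% fell at 24 h and 72.2% at 48 h. The median of the 6 was −1.13 at 24 h and −1.50 at 48 h, against −0.80 and −1.29 for all genes.

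Myc in dKO cells had 6.18 and 14.6 T>C CPM at 0 h, 11.2 and 16.1 at 2 h, 12.1 and 13.2 at 4 h, 10.4 and 12.6 at 8 h, 4.17 and 4.69 at 24 h and 1.22 and 3.42 at 48 h. The libraries of 24 h and 48 h lay below those of all earlier times. The log2 fold change was −1.31 ± 0.30 (adjusted p = 0.000277) at 24 h and −2.26 ± 0.33 (adjusted p = 1.4e-08) at 48 h. The 0 h libraries differed widely: without replicate 2 of 0 h these were −0.53 (adjusted p = 0.291) and −1.47 (adjusted p = 0.00175). Without replicate 2 of 48 h the latter was −3.20.

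Mycn had 19.0 and 25.0 T>C CPM at 0 h, 23.3 and 24.0 at 8 h, 14.4 and 12.9 at 24 h and 6.86 and 10.99 at 48 h. Neither late time reached the levels before it. On the log2 scale the change was −0.76 at 24 h (adjusted p = 0.00201) and −1.39 at 48 h (adjusted p = 4.98e-08). Without replicate 2 of 0 h the change at 24 h was −0.52 (adjusted p = 0.101).

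Max had 16.0 and 16.3 T>C CPM at 0 h, 7.48 and 5.45 at 24 h and 5.34 and 5.94 at 48 h. Max changed on the log2 scale by −1.38 at 24 h (adjusted p = 7.3e-06) and −1.603 at 48 h (adjusted p = 1.14e-07), and both calls held without any single library, though not with TMM factors from T>C reads (−0.58 and −0.31). Mlx had 3.38 and 3.34 T>C CPM at 0 h, 1.73 and 0.757 at 24 h and 0.152 and 0.594 at 48 h, from 23 and 26, 12 and 5, and 1 and 4 T>C reads. It changed by −1.47 at 24 h (adjusted p = 0.0113) and by −3.18 at 48 h (adjusted p = 6.15e-06), on the log2 scale. With counts this low single libraries set the size: the 48 h value was −4.40 without replicate 2 of 48 h and −2.54 without replicate 1, and the 24 h value −1.02 (adjusted p = 0.171) without replicate 2 of 24 h and −2.18 without replicate 1. The 24 h call was also lost without replicate 2 of 0 h (adjusted p = 0.0538) and with DESeq2 (0.0551).

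Mga, low in this line, had 4.71 and 5.90 T>C CPM at 0 h, 2.88 in both libraries at 24 h and 2.59 and 2.38 at 48 h. Its change was −0.95 (log2) at 24 h (adjusted p = 0.0244) and −1.18 at 48 h (adjusted p = 0.00318). Without replicate 2 of 0 h neither was called (adjusted p = 0.198 and 0.0528). The call at 24 h was also lost without either 24 h library (0.0954 and 0.102), with DESeq2 (0.0893) and with no filter on low counts (0.0533). Mnt was at 4.41 and 5.26 at 0 h, 7.28 and 7.16 at 2 h, 3.31 and 4.54 at 24 h and 3.20 and 3.12 at 48 h. Those of 2 h lay above and those of 48 h below the 0 h libraries, but neither difference was called (0.57, adjusted p = 0.665, and −0.70 ± 0.34, adjusted p = 0.0572). No gene of the 6 was called at 2, 4 or 8 h, where 0%, 0.587% and 1.56% of all genes were. At an unadjusted p under 0.05 there were 1, 2 and 1, and by DESeq2 none.

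**Figure D3:**
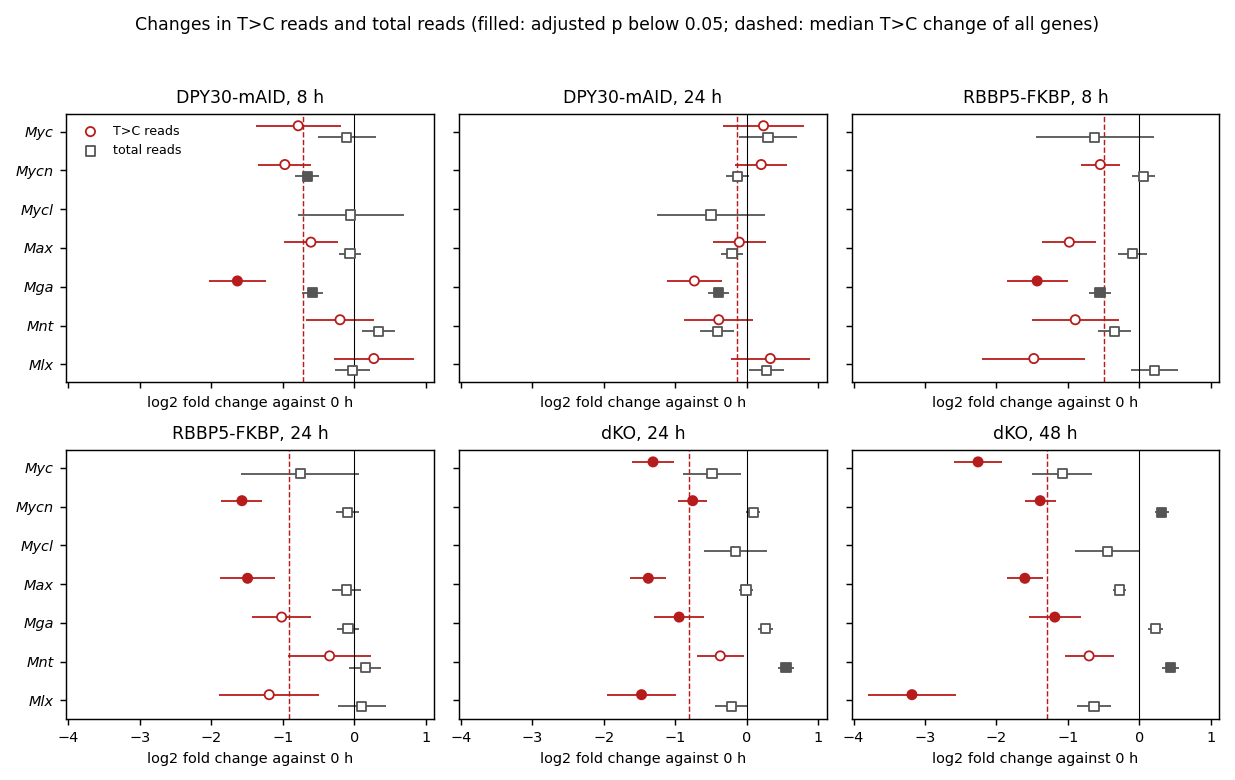
Log2 fold change against 0 h (horizontal axis, error bars SE) of each gene (vertical axis) in 6 comparisons of depleted with undepleted cells. Circles are T>C reads and squares total reads, filled where the adjusted p is under 0.05, and the dashed line is the median T>C change of all genes. At 24 h in RBBP5-FKBP cells the circles of Mycn (−1.57) and Max (−1.49) lie well to the left of their squares (−0.10 and −0.11).

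Whether the lines differed was tested as the difference of their changes from 0 h, in a fit of all SLAM-seq libraries. At 24 h the change of Mycn in RBBP5-FKBP cells was lower than that in DPY30-mAID cells by a log2 difference of −1.78 ± 0.43 (adjusted p = 0.00218), and that of Max by −1.39 ± 0.49 (adjusted p = 0.0456). These were 2 of 6 genes, where 11.4% of 6968 genes had a lower change, and the median difference was −0.62 over all genes. With TMM factors from T>C reads the difference of Mycn was −1.15 (adjusted p = 0.0266) and that of Max −0.78 (adjusted p = 0.296). The call of Max was lost in 22 of 41 alternatives and that of Mycn in none. The lines also differ in the degraded subunit and the agent used, so the subunit and the line cannot be told apart. At 2 h and 8 h no gene of the 6 differed between these lines (1 each at an unadjusted p under 0.05, 0 by DESeq2), where 0% and 0.273% of all genes did.

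Between dKO and DPY30-mAID cells no difference of change was called at 2, 8 or 24 h for any of the 6 genes, where 0%, 0.244% and 1.35% of all genes were. At an unadjusted p under 0.05 there were 0, 2 and 3, and by DESeq2 none. Without replicate 3 of DPY30-mAID cells at 8 h, none of the 6 was called in either comparison of lines at 8 h.

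The share of T>C reads per gene compares newly made with all RNA of the same gene in the same library. In 37 of 77 comparisons of a gene with its 0 h libraries, every depleted library lay below every 0 h library, a count that was also 37 without replicate 3 of 8 h in DPY30-mAID cells. Exact two-sided permutation tests of these 77 cannot go below p = 0.1 for 3 against 3 libraries or 0.333 for 2 against 2, and no adjusted p was under 0.513. In DPY30-mAID cells 1, 2 and 1 of 7 genes lay wholly below 0 h at 2, 8 and 24 h, where 7.16%, 23.4% and 9.27% of genes did. Mga was among them at each of these times, with Myc at 8 h. In RBBP5-FKBP cells there were 3, 4 and 4 of 7, where 11.2%, 12.8% and 24.9% of genes did. The 4 at 24 h were Mycn, Max, Mlx and Mga, at 0.348, 0.377, 0.391 and 0.505 of their 0 h shares, while the share over whole libraries was at 0.536.

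Mycn, Max and Mga lay wholly below 0 h from the first time on in this line. At 2 h and then 8 h their shares were at 0.680 and 0.654 of the 0 h value for Mycn, 0.388 and 0.531 for Max and 0.591 and 0.535 for Mga. In dKO cells 2, 4, 3, 7 and 6 of 7 genes lay wholly below 0 h at 2, 4, 8, 24 and 48 h, where 21%, 29%, 25.3%, 54.4% and 63.3% of genes did. Mycl is counted at 4 h and 24 h on few reads, with 0 of 38 reads carrying a conversion at 24 h and 6 of 44 at 0 h, and without it there were 3 of 6 and 6 of 6. The share of Mnt overlapped 0 h at 4 h and lay above it in both 2 h libraries, at 1.23 of the 0 h value, and again at 8 h, where 10% and 8.74% of genes lay wholly above.

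Total reads, which follow all RNA of a gene, moved less. In DPY30-mAID cells at 2 h none of the 7 genes was called (0 at an unadjusted p under 0.05, 0 by DESeq2), where 0.0305% of all genes were. At 8 h Mga went from 138, 154 and 155 CPM at 0 h to 104, 101 and 115, with no overlap, a log2 fold change of −0.58 ± 0.15 (adjusted p = 0.0057) that was −0.64 (adjusted p = 0.00838) without replicate 3 of 8 h. Mycn went from 104.5, 148 and 149 CPM to 95.9, 111 and 67.0, with overlap, a change of −0.66 ± 0.17 (adjusted p = 0.00449) that was −0.48 (adjusted p = 0.0671) without replicate 3 of 8 h. These were 2 of 7 genes, where 7.61% of 9848 genes fell. At 24 h Mga was at 129, 114 and 100.1 CPM, down by 0.39 on the log2 scale (adjusted p = 0.0357). This was 1 of 7, where 17.1% of genes fell, and the call was lost without any one of 4 libraries, replicates 2 and 3 of both times.

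From 8 h to 24 h in these cells the total reads of Mycn rose by 0.53 on the log2 scale (adjusted p = 0.0109), where 15.8% of genes rose. Those of the repressor Mnt fell by 0.76 (adjusted p = 0.0107), where 17.3% of genes fell. Mnt CPM was 36.1, 46.7 and 49.3 at 0 h, 41.3, 64.4 and 74.7 at 8 h and 42.9, 33.9 and 23.8 at 24 h. Without replicate 3 of 8 h neither was called (0.35, adjusted p = 0.124, and −0.57, adjusted p = 0.0978). The fall of Mnt was also lost without replicate 3 of 24 h (−0.57, adjusted p = 0.0931) and the rise of Mycn without replicate 1 of 24 h (0.46, adjusted p = 0.0531).

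In RBBP5-FKBP cells Mga was the gene of the network whose total reads were called, from 164, 175 and 149 CPM at 0 h to 119.8, 118 and 106 at 8 h. This was a log2 fold change of −0.55 ± 0.16 (adjusted p = 0.0289), where 5.12% of 9676 genes fell. At 24 h it was back at 167, 169.6 and 133 CPM. The call at 8 h was lost without replicate 2 of 0 h, without replicate 1 or 3 of 8 h and in a fit of these 2 groups. At 2 h and 24 h 0 of 6 genes were called (3 and 0 at an unadjusted p under 0.05, 0 by DESeq2), where 0% and 7.47% of all genes were.

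In dKO cells the total reads of Mnt rose while its T>C reads did not. Mnt CPM was 38.5 and 43.6 at 0 h, 65.7 and 59.8 at 24 h and 53.0 and 64.9 at 48 h, with no overlap, and its T>C share went from 11.5 and 12.1% to 5.03 and 7.59% and then 6.03 and 4.81%. The log2 fold change of its total reads was 0.55 ± 0.12 (adjusted p = 0.00684) at 24 h, where 5.05% of 11394 genes rose, and 0.43 (adjusted p = 0.02) at 48 h, where 6.72% did. Both calls were lost without replicate 1 of 0 h, that at 24 h also without replicate 1 of 24 h and that at 48 h without replicate 2 of 48 h and in a fit of these 2 groups. Mycn rose at 48 h, from 73.7 and 84.2 to 99.8 and 109 CPM (0.31, adjusted p = 0.0398), a call lost in 10 of 17 alternatives. Thus Mycn had more total reads and fewer T>C reads at 48 h than at 0 h. Falls of total reads at 48 h were not called for Myc (−1.08, adjusted p = 0.104), Mlx (−0.64, adjusted p = 0.0807) or Max (−0.28, adjusted p = 0.0639). They were called with a replicate block (adjusted p = 0.02, 0.0425 and 0.0204), with no filter on low counts (1.23e-08, 0.00278 and 0.0364) and without replicate 2 of 48 h (−2.25, −1.01 and −0.37). At 2, 4 and 8 h none of the 7 was called (1, 1 and 2 at an unadjusted p under 0.05, 0 by DESeq2), where 0%, 0% and 0.772% of all genes were.

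At 0 h the dKO cells differed from DPY30-mAID cells in 3 of the 7 genes, where 20.4% of 11483 genes were lower. Mga was at 68.1 and 63.0 CPM against 138, 154 and 155, a log2 difference of −1.17 ± 0.14 (adjusted p = 1.55e-08). Mycn was at 73.7 and 84.2 against 104.5, 148 and 149 (−0.75, adjusted p = 0.000181). Mlx was at 20.7 and 28.7 against 44.9, 52.0 and 58.3 (−1.05, adjusted p = 0.00344, and −0.81 with adjusted p = 0.0753 without replicate 1 of the dKO cells). The groups did not overlap for any of the 3, and the median over all genes was 0.14. The libraries of the lines also differ in read depth and in the T positions per read, 11.2 to 11.3 against 18.4 to 19.0. The 7 RA-response markers summed to 79.2 to 103 CPM in dKO cells and 8.3 to 11.2 in DPY30-mAID cells at 0 h, where 4 of the 7 were at 0. Primitive endoderm markers summed to 18.0 to 21.2 against 2.14 to 11.7 CPM, neural markers to 37.2 to 41.9 against 98.3 to 123 and pluripotency markers to 7485 to 7730 against 9264 to 10070, and their part in these differences was not tested. The loss of Kdm5a and Kdm5b, the clone and the library run cannot be told apart here.

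The Quant-seq series followed the same genes as DPY30-mAID cells left the pluripotent state under RA. With DMSO the 9 pluripotency markers went from 7323 to 7554 CPM at 0 h to 1866 at day 6, and the RA-response markers from 20.8 to 23.7 to 939.8. All comparisons below come from a single fit of 11415 genes and, against 0 h, share the 2 libraries of 0 h. Mycn fell first and came back. Its CPM was 69.4 and 60.5 at 0 h, 15.2 and 10.1 at 8 h, 6.51 and 7.71 at day 1, 13.9 and 11.7 at day 2, 35.1 and 28.0 at day 4 and 68.3 at day 6. Every library from 8 h to day 4 lay below 0 h, and that of day 6 lay inside the 0 h range.

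The log2 fold change of Mycn was −2.32 ± 0.23 at 8 h (adjusted p = 4.62e-08), −3.17 ± 0.27 at day 1 (adjusted p = 2.14e-10), −2.42 at day 2 and −1.22 at day 4 (adjusted p = 1.17e-05). At day 6 it was −0.12 (approximate 95% interval −0.56 to 0.32, adjusted p = 0.668). The return was called in both of the last steps, 1.20 ± 0.25 from day 2 to day 4 (adjusted p = 0.000666) and 1.09 ± 0.24 from day 4 to day 6 (adjusted p = 0.00148). The genes whose group means followed those of Mycn most closely over the 11 Quant-seq groups were Myo1c, Rcn1 and Uhrf1bp1l, with Pearson's r of log2 CPM of 0.95, 0.94 and 0.93.

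Myc fell at day 1, the one time at which it was called against 0 h. Its CPM was 17.0 and 12.6 at 0 h, 20.4 and 19.7 at 8 h, 1.09 and 1.10 at day 1, 18.0 and 6.99 at day 2, 17.1 and 15.4 at day 4 and 7.93 at day 6. Day 1 rests on 2 reads in each library, 4 against 70 at 0 h, a ratio of 0.0746 (95% interval 0.0198 to 0.20, counting error only). The change from 0 h was −3.67 ± 0.77 (adjusted p = 0.000281), that from 8 h −4.17 ± 0.74 (adjusted p = 6.53e-05), and from day 1 to day 2 Myc rose by 3.34 ± 0.82 (adjusted p = 0.00422). Without replicate 1 of day 2 the rise was 2.55 (adjusted p = 0.0866). At day 6 Myc was at −1.08 against 0 h (adjusted p = 0.133), a difference called with no filter on low counts (adjusted p = 0.0292), in a fit of these 2 groups (0.0156) and without either auxin library of day 6 (0.0317 and 0.0308). Eif3g, Gemin4 and Rbm10 were the genes most like Myc over the 11 groups, with Pearson's r of 0.95, 0.93 and 0.92.

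Mycl, the remaining Myc gene, rose while Mycn was low. Its CPM was 4.03 and 3.15 at 0 h, 2.09 and 2.94 at 8 h, 9.22 and 11.6 at day 1, 17.0 and 20.5 at day 2, 23.4 and 18.2 at day 4 and 12.8 at day 6. All libraries from day 1 on lay above 0 h. Against 0 h the log2 fold change was 1.54 ± 0.39 at day 1 (adjusted p = 0.00179), 2.31 ± 0.34 at day 2 (adjusted p = 3.91e-06), 2.35 ± 0.34 at day 4 (adjusted p = 1.68e-06) and 1.63 ± 0.43 at day 6 (adjusted p = 0.00203).

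Max, the common partner, changed less. It was at 203 and 189 CPM at 0 h, 166 and 138 at 8 h, 104 and 126 at day 1, 156 and 110.5 at day 2, 183 and 180.5 at day 4 and 183 at day 6. The libraries of all later times lay below 0 h, with the lowest levels at days 1 and 2. It changed by −0.76 ± 0.14 on the log2 scale at day 1 (adjusted p = 4.56e-05) and by −0.64 ± 0.13 at day 2 (adjusted p = 0.000323), and was not called at the other times. A fit of only the 2 groups also called it at 8 h (−0.32, adjusted p = 0.00868), day 4 (−0.27, adjusted p = 0.00888) and day 6 (−0.30, adjusted p = 0.0189). The step from 8 h to day 1 was −0.45 (adjusted p = 0.0143), a call lost without replicate 1 of either time, and that from day 2 to day 4 was 0.35 (adjusted p = 0.0496), lost in 18 of 26 alternatives and at 0.13 without replicate 2 of day 2.

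Mga fell early and remained low. Its CPM was 102 and 85.7 at 0 h, 43.9 and 41.1 at 8 h, 49.9 and 47.4 at day 1, 53.0 and 45.7 at day 2, 64.4 and 68.1 at day 4 and 57.7 at day 6. No later library reached those of 0 h. The log2 fold change was −1.08 ± 0.16 at 8 h (adjusted p = 2.85e-05), −0.93 at day 1 (adjusted p = 3.58e-05), −0.9985 at day 2, −0.68 at day 4 (adjusted p = 0.000635) and −0.89 ± 0.20 at day 6 (adjusted p = 0.000413).

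Mnt, the repressor, dipped and recovered. Its CPM was 37.6 and 44.0 at 0 h, 13.1 and 18.5 at 8 h, 8.14 and 8.26 at day 1, 27.3 and 22.4 at day 2, 29.7 and 36.8 at day 4 and 39.2 at day 6, lowest at day 1 and back inside the 0 h range at day 6. It changed by −1.29 ± 0.25 on the log2 scale at 8 h (adjusted p = 0.000472) and by −2.30 ± 0.29 at day 1 (adjusted p = 2.98e-07), and rose by 1.505 ± 0.32 from day 1 to day 2 (adjusted p = 0.00122). At day 2 it was at −0.80 against 0 h (adjusted p = 0.00625), a call lost without replicate 2 of 0 h or of day 2 (adjusted p = 0.0701 and 0.0708). Both day 4 libraries still lay below 0 h. That difference was not called, except in alternatives such as a fit of only these 2 groups (−0.46, adjusted p = 0.0254). The step from 8 h to day 1, −1.01 (adjusted p = 0.0227), lost its call with DESeq2, without replicate 2 of 8 h (−0.71, adjusted p = 0.239) and without either library of day 1.

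Mlx was called at no time with DMSO. Its CPM was 43.9 and 38.5 at 0 h and stayed between 23.8 and 56.4 afterwards, and the day 2 replicates, 44.3 and 23.8, differed widely. In counts, 3 of 7 genes fell at 8 h, 5 fell and 1 rose at day 1, 4 fell and 1 rose at day 2, 2 fell and 1 rose at day 4, and 1 fell and 1 rose at day 6. Over all genes 9.4%, 23.9%, 22.6%, 26.5% and 25.9% fell at these times, and 8.94%, 27.9%, 25.4%, 27.8% and 29.4% rose. The median change of the 7 was −0.93 at day 1, against 0.10 for all genes. In the steps, 3 fell and 1 rose from 8 h to day 1, and then 2, 2 and 1 rose. Over all genes 17% fell and 18.8% rose from 8 h to day 1, and 10.5%, 16.5% and 10.7% rose in the later steps.

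**Figure D4:**
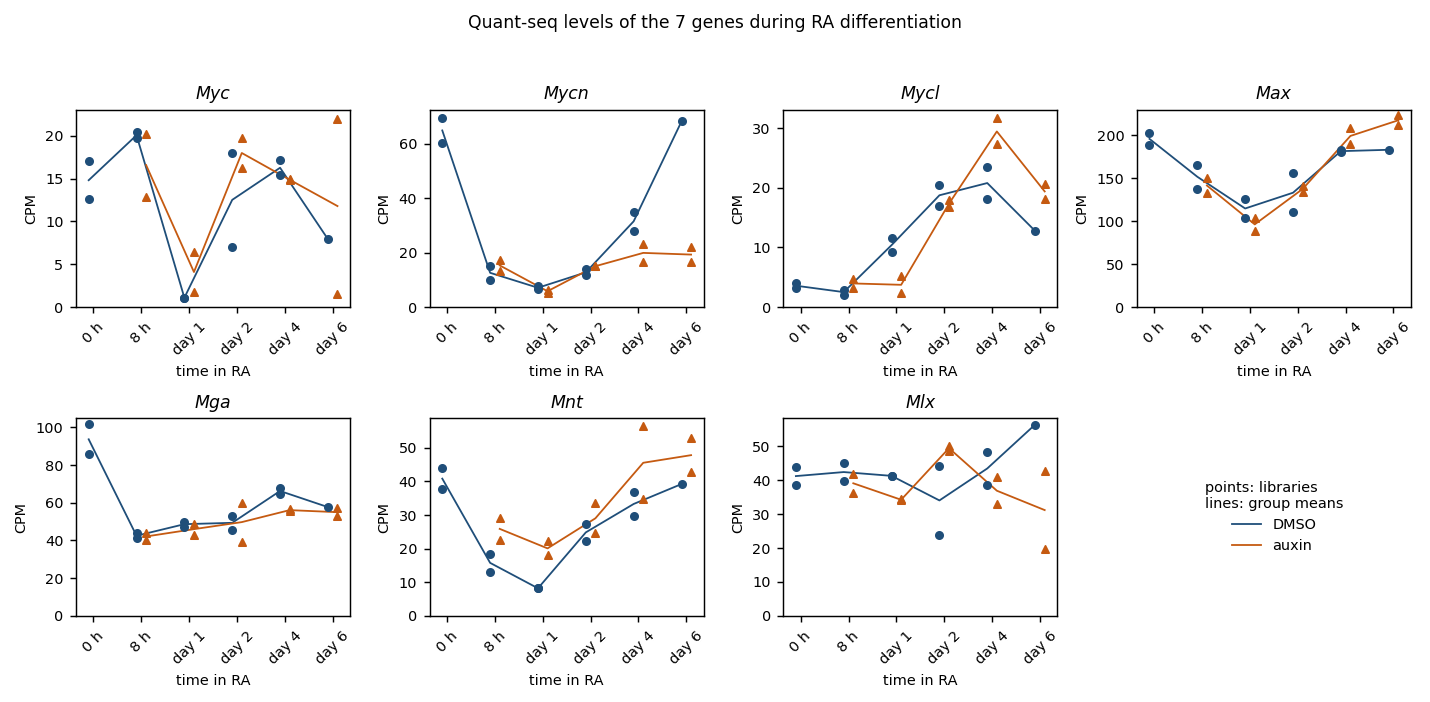
Total reads in CPM (vertical axis) of each gene against time in RA (horizontal axis, evenly spaced, not to scale), with DMSO as blue circles and auxin as orange triangles. Each symbol is a library, with 1 DMSO library at day 6. Mycn returns to 68.3 at day 6 with DMSO and is at 16.5 and 22.1 with auxin.

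The auxin arm asked how the course changed when DPY30 was depleted during RA. Mycn was the gene that differed most clearly. With auxin its CPM was 17.5 and 13.2 at 8 h, 5.24 and 6.44 at day 1, 15.1 and 14.9 at day 2, 16.8 and 23.1 at day 4 and 16.5 and 22.1 at day 6, so it lay below the DMSO libraries from day 4 on, where DMSO had 35.1 and 28.0 and then 68.3. The log2 difference from DMSO was −0.87 ± 0.24 at day 4 (adjusted p = 0.0124) and −2.02 ± 0.27 at day 6 (adjusted p = 3.41e-06). The single DMSO library of day 6 was assumed to vary like the other groups. The call at day 6 held in all 25 alternatives, none of which could leave out the single DMSO library of that day. That at day 4 was lost without TMM (adjusted p = 0.0548), with DESeq2 (0.138), without replicate 1 of auxin (−0.65, adjusted p = 0.168) and without replicate 1 of DMSO (−0.69, adjusted p = 0.145).

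Markers of primitive endoderm moved with this difference. Gata6, Gata4, Sox17 and Dab2 summed to 7.86 to 8.51 CPM at 0 h, to 1358 with DMSO and 518.7 to 519.0 with auxin at day 4, and to 2750 with DMSO and 530.0 to 664.5 with auxin at day 6. All 4 were lower with auxin at day 6, where DMSO had 1 library, with a median log2 difference of −2.35, and none was at 0. Their part in the Mycn difference was not tested. The 9 pluripotency markers summed to 3492 to 3516 CPM with DMSO and 2302 to 2366 with auxin at day 4, and to 1866 and 2048 to 2053 at day 6, and none was at 0. At day 6 Sox2 was at 178.8 to 217 CPM with auxin against 63.0, Nanog at 123 to 229 against 70.5, Esrrb at 119.6 to 137 against 53.3, Tfcp2l1 at 149.8 to 179 against 124 and Tdgf1 at 23.7 to 39.9 against 12.3. Dppa5a (643 to 724 against 842) and Klf4 (144 to 157 against 163) were lower, and Pou5f1 (436 to 510 against 497) and Zfp42 (29.3 to 61.2 against 40.5) spanned the DMSO value. The 4 fibroblast markers summed to 50.9 to 51.6 CPM with auxin and 25.65 to 35.6 with DMSO at day 4, and to 63.3 to 63.9 and 26.4 at day 6. The 4 neural markers summed to 46.3 to 78.8 with auxin and 62.5 to 64.4 with DMSO at day 4, and to 45.4 to 68.0 and 26.9 at day 6, where 1 marker of each of these lists was at 0 with DMSO. The 7 RA-response markers summed to 1163 to 1205 with auxin and 807.7 to 816.9 with DMSO at day 4, and to 1107 to 1199 and 939.8 at day 6. The part of these markers in the Mycn difference was not tested either.

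At day 1 Mnt was higher with auxin, 22.1 and 18.0 against 8.14 and 8.26 CPM, a log2 difference of 1.30 ± 0.34 (adjusted p = 0.0185). Mycl was lower, 2.33 and 5.15 against 9.22 and 11.6 CPM (−1.47 ± 0.42, adjusted p = 0.0333). The groups did not overlap for either gene, yet the call of Mnt was lost without any one of the 4 libraries (adjusted p = 0.0519 to 0.179). The call of Mycl was lost with DESeq2 (0.15), without replicate 1 of auxin (−0.99, adjusted p = 0.34) and without replicate 1 or 2 of DMSO (0.078 and 0.186), and its value was −2.11 without replicate 2 of auxin. Marker sums differed at day 1 too. The pluripotency markers summed to 5050 to 5095 CPM with auxin and 7478 to 7608 with DMSO, the 7 RA-response markers to 814.7 to 849 and 1464 to 1564, of which Stra8 made up 602 to 635 and 1272 to 1366, and the 4 neural markers to 88.8 to 91.4 and 56.2 to 62.9, with Pax6 at 0 with DMSO. Their part in the differences of Mnt and Mycl was not tested. Myc at day 1 was at 1.75 and 6.44 CPM with auxin, 13 reads against 4 with DMSO, a ratio of 3.64 (95% interval 1.12 to 15.3, counting error only), and its difference was not called. Mlx at day 6 was at 42.6 and 19.8 CPM with auxin against 56.4 (−1.03 ± 0.29, adjusted p = 0.0132). This was −0.64 (adjusted p = 0.103) without replicate 2 of auxin and −1.66 (adjusted p = 0.000148) without replicate 1, and the call was also lost without TMM (0.0539), with DESeq2 (0.0569) and in a fit of these 2 groups (0.309).

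Max and Mga were not called at any time of auxin. Max was at 133 and 150.2 CPM at 8 h, 88.5 and 104 at day 1, 141 and 134 at day 2, 208 and 190.4 at day 4 and 223 and 212 at day 6. Mga was at 43.8 and 40.5 at 8 h, 48.9 and 43.1 at day 1, 60.0 and 39.4 at day 2, 56.5 and 55.8 at day 4 and 57.0 and 53.0 at day 6. At day 4 it lay below the 64.4 and 68.1 with DMSO (−0.45, adjusted p = 0.0669), a difference called in 5 alternatives, with adjusted p = 0.0345 in a fit of these 2 groups. In counts, 1 fell and 1 rose at day 1, 1 fell at day 4 and 2 fell at day 6, where 3.49% of genes fell and 3.52% rose at day 1 and 11.5% and 12.2% fell at days 4 and 6. At 8 h and day 2 none of the 7 was called (1 and 0 at an unadjusted p under 0.05, 0 by DESeq2), where 0.788% and 13.4% of all genes were.

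Genes that the network acts on were followed as a list of 30 textbook Myc targets, of which 26 were in the files. Among them are Ncl and Npm1, which serve the nucleolus, Odc1 and Srm, enzymes of polyamine synthesis, and the chaperonin genes Hspd1 and Hspe1. T>C reads of 18 of 25 tested fell at 8 h in DPY30-mAID cells and none rose (median −1.22, against −0.71 for all genes), where 16.1% of all genes fell, with Hspe1 at −1.74, Hspd1 at −1.71 and Odc1 at −1.53. Without the low replicate 3 of 8 h, 19 of 25 fell (median −0.87, against −0.42), where 11.8% of all genes did, and these 3 were at −1.39, −1.32 and −1.32. At 24 h 3 fell, Ncl (−1.14), Srm (−1.33) and Mybbp1a (−1.46), where 2.79% of all genes did. In RBBP5-FKBP cells 7 fell at 8 h and 17 of 25 at 24 h (median −1.23, against −0.91), where 7.71% and 25.9% of all genes did, with the cyclin gene Ccnd2 at −3.84. In dKO cells 19 of 22 fell at 24 h and 20 at 48 h (medians −1.04 and −1.39, against −0.80 and −1.29), where 43% and 72.2% of all genes did, among them Ldha, of glycolysis, at −2.20 at 24 h.

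Under RA with DMSO the total reads of 15 of 26 Myc targets fell at day 1, 16 at day 2, 24 at day 4 and 23 at day 6, while 1 fell and 3 rose at 8 h. Over all genes 23.9%, 22.6%, 26.5% and 25.9% fell from day 1 to day 6, and 9.4% fell and 8.94% rose at 8 h. At day 4 the median was −1.04, against 0.04 for all genes, with Ldha at −2.38, the transferrin receptor gene Tfrc at −2.14 and Ncl at −1.57. At day 6 it was −1.29, against 0.07, with Tfrc at −2.43. At that time Mycn was back at its 0 h level and Myc had 7.93 CPM against 12.6 and 17.0. With auxin against DMSO, 2 fell and 9 rose at day 1, 9 fell and 2 rose at day 4 and 7 fell and 3 rose at day 6. Over all genes 3.49% fell and 3.52% rose at day 1, 11.5% and 7.04% at day 4, and 12.2% and 6.62% at day 6. The medians of the list were 0.12, −0.07 and 0.09 at these times, so at day 6 the median and the larger count differed in sign.

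For Mga and Max, the lists were 11 further subunits of PRC1.6 and 13 germline genes that the complex keeps silent. T>C reads of 4 of 9 subunit genes fell at 8 h in DPY30-mAID cells (median −1.12, against −0.71), where 16.1% of all genes did, with Rnf2, a ubiquitin ligase, at −1.47, Rybp at −1.51 and Wdr5 at −1.12. Without replicate 3 of 8 h, 4 of 9 fell (median −0.88, against −0.42), where 11.8% of all genes did, with these at −1.19, −1.17 and −0.88. Wdr5 also belongs to COMPASS. In RBBP5-FKBP cells 1 fell at 2 h, Cbx1 (−1.06), where 0.252% of all genes were called, and 3 of 8 at 24 h, where 25.9% fell. In dKO cells 8 of 10 fell at 24 h and 9 at 48 h (median at 48 h −1.50, against −1.29), where 43% and 72.2% of all genes did, Cbx1 and Cbx3, which bind H3K9 methylation, at −1.83 and −1.66.

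Of the germline genes too few had T>C reads to be tested (at most 2 in a line), so they were read in total RNA. In dKO cells 6 of 12 rose at 24 h and none fell (median 0.55, against 0.01), with Slc25a31 at 1.06, the helicase gene Ddx4 at 0.89 and Stk31 at 0.84, and 4 rose at 48 h, where 5.05% and 6.72% of all genes rose. In DPY30-mAID cells 1 of 9 fell at 8 h, Stag3 (−0.80), and none rose (median −0.43, against 0.01), where 7.61% of all genes fell. Stag3 was again the one gene called, at −0.89, without replicate 3 of 8 h (median −0.64), where 5.73% of all genes fell. At 24 h 2 of 9 fell and 1 rose, where 17.1% and 15.9% of all genes did, and in RBBP5-FKBP cells 0 of 5 were called at 8 h, where 5.12% of all genes fell and 4.13% rose, or at 24 h, where 7.47% were called. At 0 h, 8 of 13 were higher and 1 lower in dKO than in DPY30-mAID cells (median 1.20, against 0.14), Mael, of the piRNA pathway, by 2.86 and Stk31 by 1.86. Of all genes 25.9% were higher and 20.4% lower there. Under RA with DMSO 8 of 12 rose at day 1 and none fell (median 1.93, against 0.10), with Taf7l at 5.21, Stk31 at 2.52 and the RNA-binding Dazl at 2.39. At day 2, 10 rose and 1 fell, and at each of days 4 and 6 there were 4 that rose and 1 that fell. Over all genes 27.9%, 25.4%, 27.8% and 29.4% rose from day 1 to day 6.

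Of 6 other genes of the network in the files, 5 were tested in total reads in each degron line. In DPY30-mAID cells 2 rose at 8 h, Mxd4 and Mxi1 (0.75), which encode repressor partners of Max. At 24 h 1 rose and 1 fell there, where 15.9% of all genes rose and 17.1% fell. In RBBP5-FKBP cells Mxd4 was the 1 that rose at 8 h and at 24 h. Of all genes 5.38% rose at 8 h in DPY30-mAID cells, and 4.13% and 2.99% at 8 h and 24 h in RBBP5-FKBP cells. At 8 h and then 24 h the log2 fold change of Mxd4 was 1.57 and 1.37 in DPY30-mAID cells and 2.75 and 2.29 in RBBP5-FKBP cells, and in dKO cells it was 0.80 at 48 h. Under RA with DMSO Mxd4 rose by 2.01 at day 2, 3.07 at day 4 and 3.69 at day 6. Bmyc, a further Myc-family gene, fell in total reads at 24 h in DPY30-mAID cells (−1.33) and at 24 h and 48 h in dKO cells (−0.46 and −0.54), where 6.44% and 7.84% of all genes fell. Bmyc rose under RA with DMSO at each time from day 1 (0.55) to day 6 (0.98). Of 3 targets of Mlx and the Mondo factors, Txnip and Arrdc4, which restrain glucose uptake, fell in total reads at 8 h in DPY30-mAID cells (−1.14 and −0.70), where 7.61% of all genes did. Without replicate 3 of 8 h Txnip was at −0.90 and called, Arrdc4 at −0.56 and not called (adjusted p = 0.0908), and Mxd4 at 1.69, Mxi1 at 0.78 and Mlxip, which encodes a Mondo factor, at 1.15, all 3 called. In that fit 5.73% of all genes fell and 3.21% rose. Under RA with DMSO Txnip and Arrdc4 rose at 8 h (1.65 and 1.09) and at day 1 (2.86 and 2.99), where 8.94% and 27.9% of all genes rose, times at which Mlx itself was not called.

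Of 16 cofactors and turnover factors of Myc, 15 were in the files. T>C reads of 3 of 13 fell at 8 h in DPY30-mAID cells, 4 of 11 at 24 h in RBBP5-FKBP cells and 8 of 14 at 48 h in dKO cells, and none rose. Over all genes 16.1%, 25.9% and 72.2% fell, so the count in dKO cells lay below the share of all genes. Without replicate 3 of 8 h, 2 of 13 fell at 8 h, where 11.8% of all genes did. Under RA with DMSO 9 of 15 fell and 3 rose at day 1 (median −0.80, against 0.10), where 23.9% of all genes fell and 27.9% rose, among them Sin3a (−1.57), through which Mnt and the Mxd proteins repress, Wdr5 (−0.91), a binding partner of Myc, and the ubiquitin ligase gene Huwe1 (−1.21). The lists were described by their counts and medians, and no test of a list as a whole was made. All list counts of T>C reads rest on scaling to total reads. They were not repeated with TMM factors from T>C reads.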

How the data were processed

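Mouse E14 cells were measured in 58 libraries: 36 SLAM-seq and 22 Quant-seq libraries. The authors deposited read counts, T>C read counts, conversions and covered T positions for 46420 3′ UTR intervals (GRCm38), made with SlamDunk 0.3.4 per the file headers, and per the methods with HISAT2 2.2.1 for Quant-seq. The deposited CPM were not used. No molecular identifiers were given, so exact intervals cover counting error only. The methods filter for reads with several conversions, which the deposited T>C counts do not allow to be repeated.

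Intervals were summed to 20177 genes. Groups came from the labels. The Quant-seq DMSO libraries of day 6 were identical and counted as 1, leaving 21. The members and lists were chosen with earlier results of these data known. Members were tested in every comparison for which they had enough reads; the text gives each called result and counts the others. It names at most the 3 list genes of smallest adjusted p and the 3 genes most like Myc and Mycn.

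edgeR 4.0.16 (R 4.3.3) quasi-likelihood tests were run where a gene averaged 10 or more reads in some group, one fit per SLAM-seq line, one of all SLAM-seq libraries for differences of change, one of the DPY30-mAID and dKO libraries for 0 h, and one of Quant-seq. T>C reads used total reads as library size with TMM factors from total reads. P-values were Benjamini-Hochberg adjusted over all genes tested and called under 0.05. SE was the log2 fold change divided by the square root of F. Shares of T>C reads were compared by exact permutation. Alternatives were TMM from T>C reads, no TMM, DESeq2 1.42.0, no filter, the replicate number as a block, fits of only the 2 groups, conversions per T, and leaving out each library. The fits were tested on simulated data. Depth of 1264241 to 7792404 reads limits genes with few reads. Python 3.11.15, numpy 2.4.6, pandas 2.3.3, scipy 1.17.1 and matplotlib 3.10.9 made tables and figures.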

Additional observations from a re-analysis of the deposited data

Results flagged for a closer look

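The change of 2 genes from 0 h to 24 h differed between the degron lines by a test of the difference itself. For Mycn the change of T>C reads in RBBP5-FKBP cells minus that in DPY30-mAID cells was −1.78 (log2), and for Max it was −1.39. The T>C values behind them at 24 h are 11.1, 24.7 and 31.3 CPM for Mycn and 9.30, 17.7 and 9.64 for Max in RBBP5-FKBP cells, and 66.6, 52.9 and 67.0 for Mycn and 42.9, 39.3 and 41.6 for Max in DPY30-mAID cells. With TMM factors from T>C reads the differences were −1.15 for Mycn and −0.78 for Max. The call of Max was lost in 22 of 41 alternatives and that of Mycn in none. The degraded subunit, the agent and the line cannot be told apart.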

How the results depend on the processing

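Of 62 called tests of the genes, 30 were called under each alternative run for them. Over 1442 alternatives 1316 kept direction and call, 124 lost the call and 2 reversed: with TMM factors from T>C reads Mycn at 24 h in dKO cells was 0.0462 and Mga at 48 h 0.12. This scaling moved the number of calls from 2 to 1 in DPY30-mAID T>C reads, 3 to 0 in RBBP5-FKBP, 10 to 1 in dKO and 2 to 1 for the differences between lines. DESeq2 gave 5 calls in place of 3 in RBBP5-FKBP T>C reads and 2 in place of 5 for auxin in RA. No filter gave 7 in place of 3 for dKO total reads and 1 in place of 2 for the differences. Library sizes without TMM gave 1 in place of 2 for the differences and 3 in place of 5 for auxin. Fits of only the 2 groups gave 1 in place of 2 in DPY30-mAID T>C reads, 0 in place of 1 for RBBP5-FKBP total reads 1 in place of 3 for dKO total reads, and 24 in place of 19 for RA against 0 h and 11 in place of 9 for RA steps. Leaving out single libraries gave 1 to 6, 2 to 4 and 5 to 10 calls for T>C reads in the 3 lines, 2 to 5, 0 to 1 and 1 to 4 for total reads, 1 to 2 for the differences, 17 to 23 (19 with all) for RA against 0 h, 7 to 10 (9) for RA steps and 3 to 6 for auxin. The cause was not tested.

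Over the fits, same-numbered libraries deviated together with a mean correlation of −0.007 to 0.056. A mean of this kind cannot show that the libraries of each line were unpaired. Not every pair was over 0.1 in any fit: 10 of 30 pairs were in dKO total reads (highest 0.40), 10 of 48 in the DPY30-mAID and dKO total reads (highest 0.43), 6 of 90 in Quant-seq, 1 of 18 in RBBP5-FKBP total reads and none in the other fits. A replicate block took the calls from 2 to 3 in DPY30-mAID T>C reads, 3 to 4 in RBBP5-FKBP, 3 to 6 in dKO total reads and 2 to 1 for the differences between lines, and stayed at 10 for dKO T>C reads, at 5 for auxin and near 9, at 8, for RA steps. Genes with few reads, Mycl and Myc in RBBP5-FKBP cells above all, are limited by depth.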
